A study of Mus musculus with 8 samples.

Results

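Peroxisome genes were taken as the rows of the gene table whose KEGG annotation, given in the table itself, contains the peroxisome pathway map04146. Of the 86 such rows, Nos2, Prdx1, Mvk and Pmvk were set aside, which left 82 of 55801 genes. The rule used annotation and symbols and no expression value. RNA had been sequenced from peritoneal macrophages of male C57BL/6 mice aged 6 to 8 weeks, collected 72 h after an injection of thioglycollate broth into the abdominal cavity, a procedure that draws in macrophages but leaves other cells of the cavity in the harvest. There were 4 groups of 2 samples. NC cells received the vehicle DMSO, LPS cells received 100 ng/ml of lipopolysaccharide (the endotoxin of Gram-negative bacterial walls) for 4 h, C498 cells received 15 µM of the small molecule C498, and C498+LPS cells received C498 for 0.5 h and then LPS. C498 is an inhibitor of JAK/STAT and NFκB signaling by the study's own account. The labels do not say whether the 2 samples of a group came from separate mice or cultures, so the p-values measure only the spread between these samples, which may be technical.

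Peroxisomes are organelles with a single membrane that shorten very-long-chain and branched fatty acids by beta-oxidation, begin the synthesis of ether lipids and break down the hydrogen peroxide that their oxidases make. They hold no DNA, and their proteins are made in the cytosol and brought in by a set of import factors called peroxins. In macrophages they are known for lipid handling and for buffering oxidants during inflammation. The KEGG map also holds genes whose proteins work mainly elsewhere, among them the mitochondrial superoxide dismutase Sod2, the mitochondrial isocitrate dehydrogenase Idh2, and long-chain acyl-CoA synthetases that sit on several membranes.

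The deposited values are TPM (transcript abundances scaled to gene length and to the same total in every sample). Tests were run on the 12189 genes with a mean of at least 1 TPM over the 8 samples, and 61 of the 82 members passed this filter. The other 21 averaged at most 0.938 TPM. Among them, Acnat1, Acnat2, Agxt, Hao2 and Acox2 were listed at 0 in every sample, and Ehhadh, the bifunctional enzyme of the inducible peroxisomal pathway of liver, averaged 0.815 TPM. The most abundant member was Sod2, at a mean of 1139 TPM, followed by the peroxiredoxin Prdx5 at 1135 TPM, the cytosolic superoxide dismutase Sod1 at 382 TPM, the 3-ketoacyl-CoA thiolase Acaa1a at 135 TPM and the acyl-CoA synthetase Acsl1 at 131 TPM. The summed TPM of the 61 tested members was 4298 and 4388 in NC, 5322 and 5539 in LPS, 3606 and 3670 in C498, and 4017 and 3777 in C498+LPS, a sum in which Sod2 and Prdx5 hold the largest parts.

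All 8 macrophage markers examined were expressed, with a summed TPM of 20099 to 20590 in NC, 17938 to 18472 in LPS, 15939 to 16075 in C498 and 12420 to 14208 in C498+LPS. Lyz2, the lysozyme of macrophages and neutrophils, made up most of this sum, with group means of 15986, 13225, 11497 and 8536 TPM in the same order. The log2 change was negative for 6 of the 8 in C498 vs NC, 2 of them lower by the adjusted p (median -0.27), and for 7 of the 8 in C498+LPS vs LPS, 4 of them lower by the adjusted p (median -0.63). In the LPS comparisons it was negative for 5 of the 8 in LPS vs NC, 2 of them lower by the adjusted p (median -0.15), and for 7 of the 8 in C498+LPS vs C498, 3 of them lower by the adjusted p (median -0.37). Cd14, a coreceptor for LPS, rose in both LPS comparisons and was higher in C498 than in NC (log2 change 1.47, SE 0.0796, adjusted p = 0.000121). The 9 markers of fibroblasts and mesothelial cells summed to 154 to 197 TPM in NC and 180 to 205 TPM in LPS, against 646 to 769 TPM in C498 and 632 to 932 TPM in C498+LPS. Of the 8 of these that were tested, 7 were higher in C498 than in NC and 6 were higher in C498+LPS than in LPS, by the thresholds given in the next paragraph. Markers of neutrophils summed to 82.4 to 135 TPM in NC, 97.5 to 123 in LPS, 50.0 to 55.8 in C498 and 72.3 to 81.6 in C498+LPS, with the defining genes Elane and Ngp at 0 throughout, and of the 3 tested 1 was lower in C498 than in NC and 1 in C498+LPS than in LPS. Those of B cells, T cells, and eosinophils with mast cells each summed to at most 14.9 TPM, with Epx at 0 throughout. In such bulk samples, fewer cells of a type and less RNA per cell cannot be told apart.

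LPS lowered more peroxisome genes than it raised. A gene is said to have risen or fallen where its fold change was at least 2 and its adjusted p in limma was at most 0.05, the thresholds of the study. In LPS vs NC, 13 of the 61 tested members fell (21.3%, against 6.68% of all 12189 genes) and 1 rose (1.64%, against 5.55%). With no fold threshold, 28 members (45.9%) were lower and 4 (6.56%) were higher at an adjusted p of at most 0.05, where the shares of all genes were 19.8% and 9.84%. The count of 28 was 15 without LPS replicate 1, 17 without LPS replicate 2 and 13 with a fit of these groups alone. The log2 change was negative for 52 of the 61 members, with a median of -0.45, against -0.17 over all tested genes. Both LPS samples lay below both NC samples for 43 members (70.5%, against 42.2% of all genes) and above both for 5 (8.2%, against 19.3%). The median of all genes itself moved here, and with each sample centred on its median gene 5 members fell (against 4.35% of all genes) and 3 rose (against 7.0%), with a member median of -0.28 against -0.00054. Quantile normalization left 6 members lower (against 4.18%) and 1 higher (against 6.29%). Without NC replicate 2 or without LPS replicate 1, 2 members rose in place of 1, the added one being Prdx5 in each case.

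**Figure D1:**
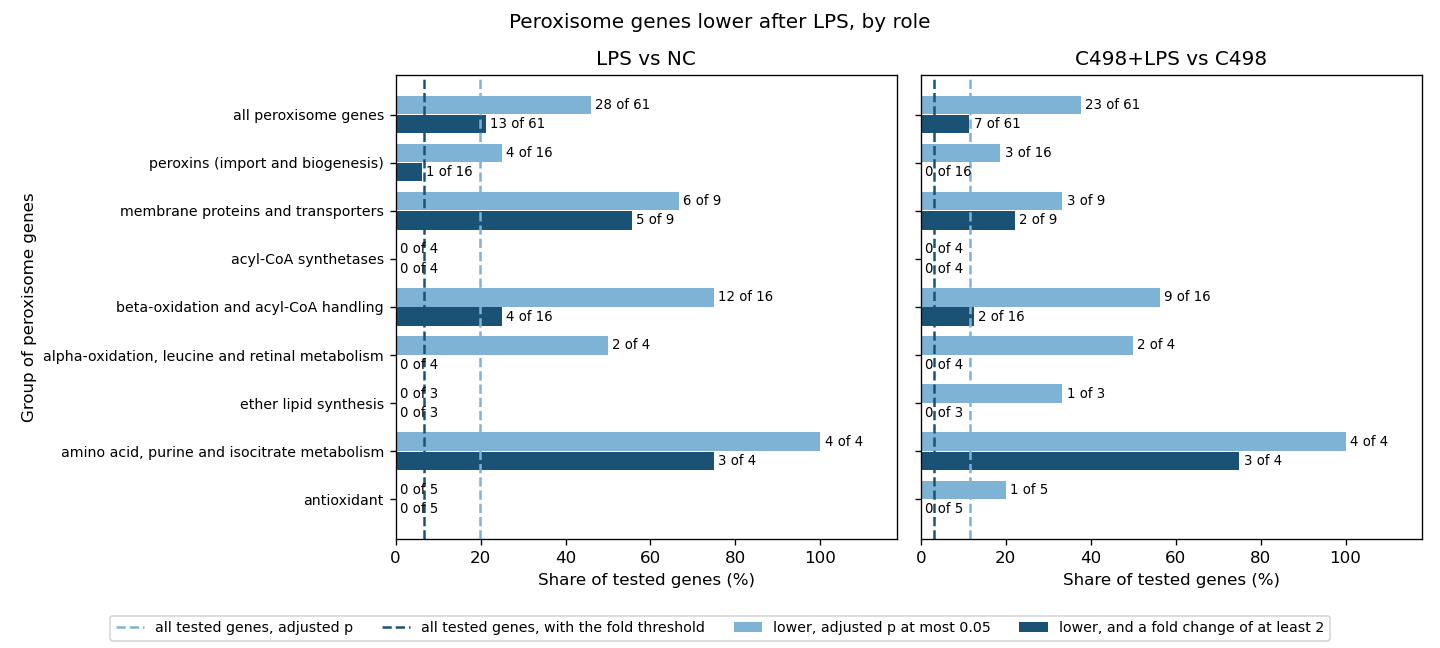
Share of tested members in each role group that were lower after LPS, without C498 and after it. The x axis is in percent, and the role groups are on the y axis. Pale bars hold members lower at an adjusted p of at most 0.05, and dark bars those that also passed the fold threshold. Dashed lines mark the shares of all tested genes. The membrane transporters and the amino acid, purine and isocitrate enzymes hold 8 of the 13 members that fell in LPS vs NC, while the 16 peroxins hold 1.

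**Figure D2:**
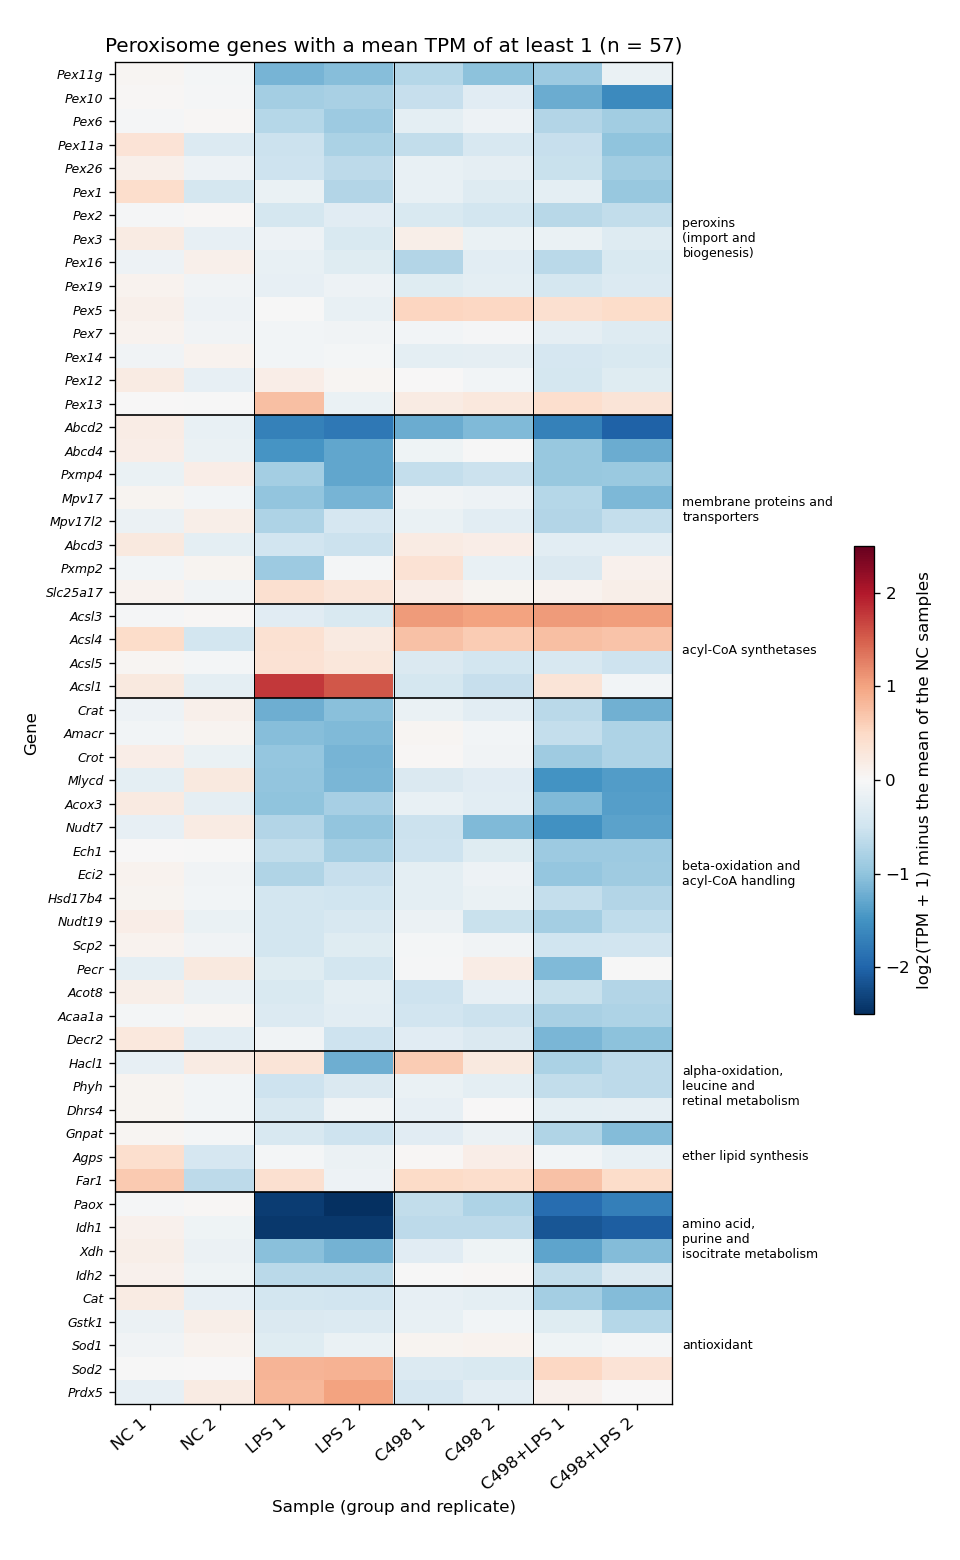
Log2(TPM + 1) of 57 tested members in each of the 8 samples, each row shown as its difference from the mean of the NC samples and ordered by role. All 4 samples with LPS are below all 4 without it in 9 of the 15 rows of beta-oxidation, 6 of the 8 of membrane proteins, 4 of the 4 of isocitrate, polyamine and purine enzymes and 3 of the 15 of peroxins, against 21.3% of all tested genes.

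The largest decreases were among enzymes of isocitrate, polyamine and purine metabolism, of which 3 of 4 tested members fell in LPS vs NC (75%, against 6.68% of all genes) and all 4 passed the adjusted p. Idh1 makes NADPH from isocitrate in the cytosol and in peroxisomes (ENSMUSG00000025950, chromosome 1: 65158616 to 65186500, minus strand, GRCm38). Its TPM was 122 and 105 in NC, 20.5 in both samples of LPS, 71.9 in both samples of C498, and 25.1 and 26.5 in C498+LPS. The LPS samples were the lowest of the 8, and no groups overlapped. Idh1 fell by 2.41 on the log2 scale in LPS vs NC, 5.32-fold (SE 0.109, adjusted p = 1.71e-05), and by 1.45 in C498+LPS vs C498 (SE 0.109, adjusted p = 0.000365). C498 alone left it lower than NC at a fold under 2 (log2 change -0.65, SE 0.109, adjusted p = 0.0103), and it differed by 0.31 between C498+LPS and LPS (adjusted p = 0.0968).

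Paox, the peroxisomal oxidase of acetylated polyamines (ENSMUSG00000025464, chromosome 7: 140115799 to 140137224, plus strand), followed the same order of groups. Its TPM was 16.3 and 17.1 in NC, 2.39 and 2.15 in LPS, 10.5 and 9.29 in C498, and 3.75 and 4.44 in C498+LPS. Again no groups overlapped, with NC highest and LPS lowest. It fell 5.41-fold in LPS vs NC (log2 change -2.44, SE 0.165, adjusted p = 9.91e-05) and 2.14-fold in C498+LPS vs C498 (log2 change -1.10, SE 0.165, adjusted p = 0.00653), and it was higher in C498+LPS than in LPS by the adjusted p alone (log2 change 0.64, SE 0.165, adjusted p = 0.0394). This last result was lost after centring or quantile normalization, with a fit of these groups alone, and on leaving out any LPS, C498 or C498+LPS sample. Paox shares 142 exon bases on the opposite strand with Echs1, a mitochondrial enoyl-CoA hydratase at a mean of 69.1 TPM, and the strand setting of the authors' counting was not stated, so reads of this stretch could not be assigned with certainty. Echs1 itself fell in LPS vs NC (log2 change -1.17, SE 0.0864, adjusted p = 0.000141).

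Xdh, the oxidase that turns hypoxanthine into uric acid, was measured at 143 and 116 TPM in NC, 62.4 and 56.7 in LPS, 106 and 119.8 in C498, and 51.1 and 60.1 in C498+LPS. The 4 samples with LPS lay below the 4 without it. Xdh fell in LPS vs NC (log2 change -1.10, SE 0.141, adjusted p = 0.0016) and in C498+LPS vs C498 (log2 change -1.01, SE 0.141, adjusted p = 0.0048), and C498 made no detectable difference in either state, at adjusted p = 0.391 against NC and 0.691 against LPS. The call in LPS vs NC was lost at a fold just under 2 without NC replicate 1 (-0.95, adjusted p = 0.00694) and after centring (-0.94). Idh2, the mitochondrial counterpart of Idh1, was lower by the adjusted p alone in both LPS comparisons, by 0.68 and 0.50 on the log2 scale.

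Of the membrane proteins and transporters, 5 of 9 tested members fell in LPS vs NC (55.6%, against 6.68% of all genes) and 2 of 9 in C498+LPS vs C498 (22.2%, against 3.13%). Abcd2, a half-transporter that carries very-long-chain acyl-CoA into the peroxisome, was weakly expressed, at 5.63 and 4.08 TPM in NC, 0.79 and 0.68 in LPS, 1.47 and 1.69 in C498, and 0.79 and 0.43 in C498+LPS. Only the NC samples stood above 2 TPM. It fell in LPS vs NC (log2 change -1.74, SE 0.251, adjusted p = 0.00262) and in C498 vs NC (log2 change -1.17, SE 0.251, adjusted p = 0.0234), the only member that fell with C498 alone. That second call was lost without NC replicate 1 (-0.98, adjusted p = 0.0358, fold under 2) and without C498 replicate 1 or 2 (adjusted p = 0.11 and 0.0855). Abcd4, which despite its family works at the lysosome in vitamin B12 transport, was at 17.7 and 13.9 TPM in NC, 5.02 and 5.81 in LPS, 14.5 and 15.7 in C498, and 7.7 and 6.07 in C498+LPS. Both groups with LPS lay below both groups without it, and Abcd4 fell in LPS vs NC (log2 change -1.38, SE 0.185, adjusted p = 0.00197) and in C498+LPS vs C498 (log2 change -1.04, SE 0.185, adjusted p = 0.0121). Abcd3, the abundant half-transporter also called PMP70, showed log2 changes of -0.51 and -0.45 in the LPS comparisons and did not pass (adjusted p = 0.0579 and 0.114).

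Mpv17, a protein of the inner mitochondrial membrane, fell in LPS vs NC (log2 change -1.07, SE 0.153, adjusted p = 0.00261) from 51.2 and 46.9 TPM to 24.4 and 21.4 TPM. Pxmp4, a peroxisomal membrane protein, fell from 7.09 and 9.32 TPM to 4.04 and 2.69 TPM (log2 change -1.08, SE 0.22, adjusted p = 0.0104). The Mpv17 call was lost without LPS replicate 2 (-0.98, adjusted p = 0.0282), where the fold was just under 2, and that of Pxmp4 without NC replicate 2 (-0.91, adjusted p = 0.0368) or LPS replicate 2 (-0.86, adjusted p = 0.071). Both were also lost at folds under 2 after centring (-0.90 and -0.91) and quantile normalization (-0.94 and -0.82), and Pxmp4 with a fit of these groups alone (adjusted p = 0.0754). Mpv17l2, the most abundant member of the group and a mitochondrial protein, was lower by the adjusted p alone (-0.59, adjusted p = 0.0253). Slc25a17, a carrier of coenzyme A and other cofactors, was the one transporter with a positive change in LPS vs NC (0.36, adjusted p = 0.0615), which did not pass.

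**Figure D3:**
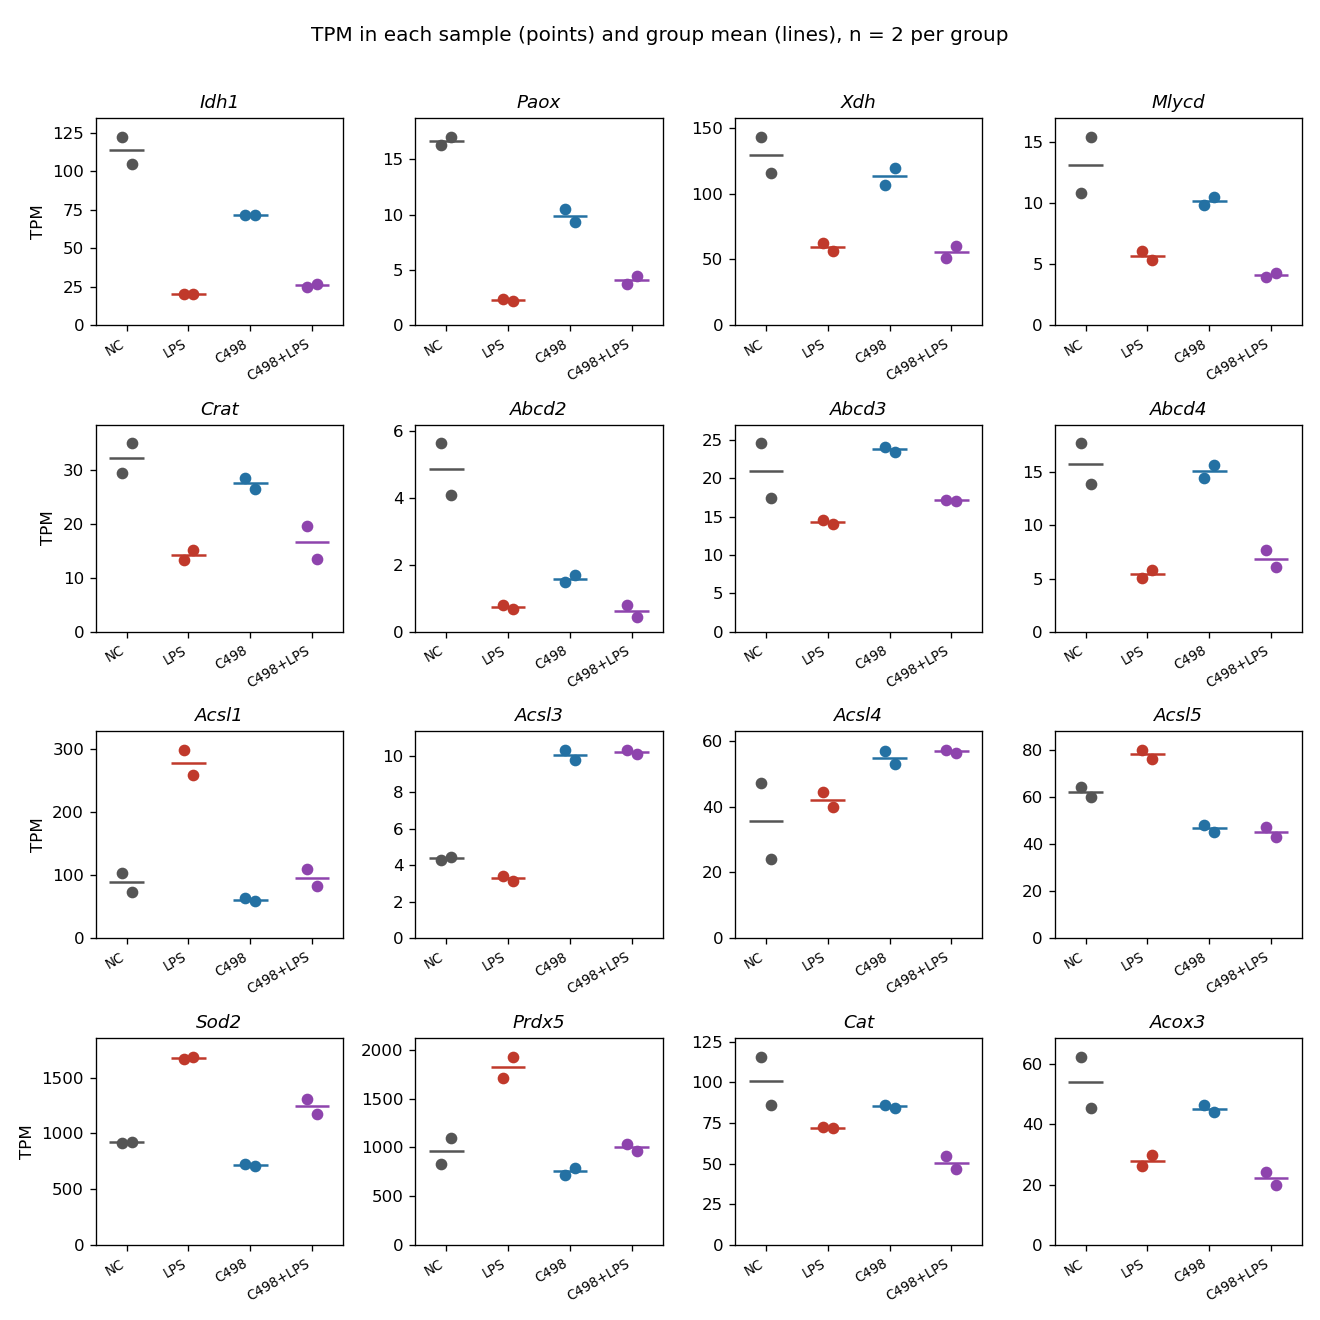
TPM of 16 members in each sample (points) with the mean of each group (lines), on linear axes that start at 0, for NC, LPS, C498 and C498+LPS (n = 2 each). Idh1, Paox, Xdh, Mlycd and Abcd4 are lower with LPS in both backgrounds, Acsl1 stands apart in LPS, and Acsl3 is near 10 TPM in both C498 groups.

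For beta-oxidation and acyl-CoA handling, every one of the 16 tested members had a negative change in LPS vs NC, from -1.13 to -0.30, and also after centring or quantile normalization. On the scale as tested, 62.9% of all genes were negative. Of the 16 members, 4 fell (25%, against 6.68%) and 12 passed the adjusted p (75%, against 19.8%). In C498+LPS vs C498 all 16 were again negative, as were 67.8% of all genes, 2 fell (12.5%, against 3.13%) and 9 passed (56.2%, against 11.7%). Both comparisons have their own controls and samples. They share the estimate of each gene's spread, which was taken from all 8 samples, so their counts of passing members are not independent. Acox3, the oxidase for branched chains, was at 62.4 and 45.5 TPM in NC, 26.1 and 29.7 in LPS, 46.5 and 43.9 in C498, and 24.3 and 19.9 in C498+LPS. It fell in C498+LPS vs C498 (log2 change -1.01, SE 0.176, adjusted p = 0.0112) and in LPS vs NC was lower at a fold under 2 (log2 change -0.91, SE 0.176, adjusted p = 0.00848).

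The later enzymes of the pathway stayed under a fold of 2. Hsd17b4, the D-bifunctional protein that performs the middle steps, was at 63.4 and 57.5 TPM in NC, 43.8 and 42.3 in LPS, 50.6 and 53.6 in C498, and 39.8 and 36.1 in C498+LPS, with both LPS comparisons passing the adjusted p only (-0.48 and -0.45). The thiolase Acaa1a was at 168 and 181 TPM in NC, 138 and 145 in LPS, 125 and 120.5 in C498, and 99.9 and 102 in C498+LPS. Its order was NC, LPS, C498, C498+LPS, and it was lower with C498 both without LPS (log2 change -0.51, SE 0.0852, adjusted p = 0.0104) and with it (log2 change -0.48, SE 0.0852, adjusted p = 0.0103) by the adjusted p alone. Acaa1a has a near-identical paralog, Acaa1b, and shares 290 exon bases with Myd88 on the opposite strand, so its level is uncertain.

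The members of this set that fell in LPS vs NC were enzymes that transfer, isomerize or decarboxylate acyl groups. Crat and Crot transfer short and medium acyl chains to carnitine so that they can leave the organelle. Crat fell from 29.5 and 34.9 TPM to 13.2 and 15.1 TPM (log2 change -1.13, SE 0.191, adjusted p = 0.00511), and Crot from 13.6 and 10.5 TPM to 5.59 and 4.79 TPM (log2 change -1.07, SE 0.178, adjusted p = 0.00473). Amacr, the racemase of branched-chain acyl-CoA, fell from 3.14 and 3.58 TPM to 1.07 and 1.03 TPM (log2 change -1.09, SE 0.205, adjusted p = 0.00785). Mlycd, which decarboxylates malonyl-CoA, was at 10.8 and 15.4 TPM in NC, 6.04 and 5.3 in LPS, 9.8 and 10.5 in C498, and 3.92 and 4.26 in C498+LPS and fell in LPS vs NC (log2 change -1.06, SE 0.196, adjusted p = 0.00717) and in C498+LPS vs C498 (log2 change -1.13, SE 0.196, adjusted p = 0.0109). None of these groups overlapped with their controls. The calls of all 4 in LPS vs NC were lost at folds under 2 after centring or quantile normalization, from -0.96 to -0.90 and from -0.95 to -0.83 on the log2 scale. Leaving out 1 library ended the call of Crot (without NC replicate 1, -0.90, or LPS replicate 2, -0.97) and of Mlycd in LPS vs NC (without NC replicate 2, -0.83, or LPS replicate 2, -0.98), all at folds under 2. Both calls were also lost with a limma fit of these groups alone (adjusted p = 0.0551 and 0.0644).

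The acyl-CoA synthetases, which activate fatty acids by joining them to coenzyme A, had 1 of 4 tested members rise in LPS vs NC (25%, against 5.55% of all genes), with 1 of the 4 negative. With limma none rose or fell in C498+LPS vs C498, where 1 of 4 had an unadjusted p under 0.05, as did 31.9% of all genes. Acsl1 (ENSMUSG00000018796, chromosome 8: 46471037 to 46536051, plus strand) was at 104 and 73.2 TPM in NC, 298 and 258 in LPS, 64.1 and 58.3 in C498, and 109 and 82.5 in C498+LPS. The LPS samples stood far above the other 6. Acsl1 was the one member that rose in LPS vs NC, 3.16-fold (log2 change 1.66, SE 0.196, adjusted p = 0.00117). In C498+LPS it was 2.9-fold lower than in LPS (log2 change -1.54, SE 0.196, adjusted p = 0.00305), and its change in C498+LPS vs C498 did not pass (log2 change 0.63, SE 0.196, adjusted p = 0.0715). Acsl3, found on the endoplasmic reticulum and on lipid droplets (ENSMUSG00000032883, chromosome 1: 78657825 to 78707743, plus strand), was at 4.31 and 4.46 TPM in NC, 3.44 and 3.14 in LPS, 10.3 and 9.8 in C498, and 10.3 and 10.1 in C498+LPS. The 4 samples with C498 lay above the 4 without it. Acsl3 rose in C498 vs NC (log2 change 1.04, SE 0.153, adjusted p = 0.00639) and in C498+LPS vs LPS (log2 change 1.39, SE 0.153, adjusted p = 0.0019), while LPS made no detectable difference (log2 changes -0.33 and 0.023, adjusted p = 0.151 and 0.94). The call against NC was lost without either C498 sample (adjusted p = 0.0688 and 0.0568), with a fit of these groups alone (adjusted p = 0.07), and at folds under 2 after centring and quantile normalization (0.92 and 0.90). Acsl3 shares 244 exon bases with Utp14b on the same strand, a gene at a mean of 1.0 TPM.

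The other synthetases are named after their values were seen. Acsl4, which prefers arachidonic acid, was at 47.1 and 24.2 TPM in NC, 44.4 and 39.8 in LPS, 56.8 and 53 in C498, and 57.2 and 56.4 in C498+LPS. Its NC replicates were far apart, and it passed in no comparison. Acsl5 was at 64 and 60.03 TPM in NC, 79.8 and 76 in LPS, 48.1 and 45.1 in C498, and 47 and 43 in C498+LPS. It was highest in LPS (0.32, adjusted p = 0.0473) and lower in C498+LPS than in LPS (log2 change -0.78, SE 0.1, adjusted p = 0.00317), both by the adjusted p alone. The first result was lost with no filter, with a fit of NC and LPS alone, and on leaving out any sample but NC replicate 1. The second held under all alternatives tried.

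For the members with a call that held under all alternatives tried, the sequence before the start site was read from RefSeq promoters on GRCm38.p6, to show what stands there in genes that moved in different directions. Of the 82 members, 62 were in this table. Abcd2 and Abcd4 were not. Capitals mark the GC box GGGCGG on either strand, a binding sequence of Sp family factors. The stretches are chr1:65186501-65186682 on the minus strand for Idh1, where 68 bases that lie in annotated exons of Idh1 and of its divergent neighbor Pikfyve were left out, chr7:140125407-140125656 on the plus strand for Paox, which lies in an intron of the annotated gene before an inner start, chr8:46470787-46471036 on the plus strand for Acsl1 and chr1:78657575-78657824 on the plus strand for Acsl3. The last 2 lie outside annotated genes.
Idh1: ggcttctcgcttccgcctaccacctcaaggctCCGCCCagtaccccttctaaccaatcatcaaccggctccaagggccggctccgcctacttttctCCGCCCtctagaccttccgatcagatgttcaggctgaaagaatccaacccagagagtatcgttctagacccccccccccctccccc
Paox: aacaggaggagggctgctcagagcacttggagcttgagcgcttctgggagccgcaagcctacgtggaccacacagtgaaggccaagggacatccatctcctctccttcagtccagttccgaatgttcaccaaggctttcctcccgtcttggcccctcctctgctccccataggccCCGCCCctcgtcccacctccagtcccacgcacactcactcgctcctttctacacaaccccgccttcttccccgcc
Acsl1: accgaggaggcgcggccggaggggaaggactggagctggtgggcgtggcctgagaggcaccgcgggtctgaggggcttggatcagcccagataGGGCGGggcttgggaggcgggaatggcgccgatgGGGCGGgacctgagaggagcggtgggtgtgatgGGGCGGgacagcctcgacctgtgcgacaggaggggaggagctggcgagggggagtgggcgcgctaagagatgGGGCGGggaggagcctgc
Acsl3: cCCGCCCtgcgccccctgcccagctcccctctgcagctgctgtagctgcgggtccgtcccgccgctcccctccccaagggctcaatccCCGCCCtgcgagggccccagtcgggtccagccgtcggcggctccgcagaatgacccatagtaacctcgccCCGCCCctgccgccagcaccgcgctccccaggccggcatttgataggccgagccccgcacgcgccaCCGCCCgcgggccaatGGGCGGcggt
These stretches hold 2, 1, 4 and 5 GC boxes, and 59.9%, 61.6%, 72% and 75.6% of their bases are G or C. In the 250 bases before the start, 41 of the 62 members held GGGCGG, against 35.4% of the 27025 genes in the table. The median GC content was 59.4% over the 76 promoters of members and 52.4% over all 32851. The nuclear receptor half-site AGGTCA was in 8 of the 62 members, against 15.8% of genes, and its direct repeat with 1 base between the copies, the form bound by PPAR with RXR, was in 0, against 0.0407% of genes. The E-box CACGTG was in 3 members, against 6.86% of genes, and TGACNNNGC, the core of the antioxidant response element, in 8, against 11.5%. Both strands were searched, and the half-site is contained in its direct repeat. A match to these letters is not a binding site, and a missing match says only that the letters are not in this window.

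Of the 16 tested peroxins, the import and biogenesis factors, 1 fell in LPS vs NC (6.25%, against 6.68% of all genes) and 4 were lower by the adjusted p (25%, against 19.8%), shares near those of all genes. In C498+LPS vs C498 with limma none fell (against 3.13%) and 3 were lower by the adjusted p (18.8%, against 11.7%). An unadjusted p under 0.05 was found for 4 of 16, and for 31.9% of all genes. The medians were -0.31 and -0.23, against -0.17 and -0.18 over all genes. The log2 change was negative for 14 of 16 in each, and for 10 of 16 in each with samples centred on the median gene. The import receptor Pex5, which recognizes the C-terminal targeting signal, was at 20.6 and 17.3 TPM in NC, 18.7 and 16.4 in LPS, 27.8 and 27.6 in C498, and 25.1 and 26.2 in C498+LPS. The C498 and C498+LPS samples lay above all others, with the adjusted p alone passed in C498 vs NC (log2 change 0.53, SE 0.133, adjusted p = 0.0382) and in C498+LPS vs LPS (log2 change 0.52, SE 0.133, adjusted p = 0.0371). Both results were lost with no filter, with a fit of the compared groups alone, and on leaving out any LPS, C498 or C498+LPS sample. Pex7, the receptor for the N-terminal signal, ranged from 13.1 to 17.8 TPM, and Pex14 of the docking complex from 18.9 to 27.5 TPM, and neither passed in any comparison. Pex19, the most abundant peroxin and the chaperone for peroxisomal membrane proteins, ranged from 28.8 to 42.1 TPM and did not pass either.

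Pex11a and Pex11g belong to a family that elongates the membrane before division. Pex11g was at 2.67 and 2.45 TPM in NC, 0.58 and 0.71 in LPS, 1.17 and 0.75 in C498, and 0.9 and 2.17 in C498+LPS, near the filter. It was the one peroxin that fell in LPS vs NC (log2 change -1.11, SE 0.304, adjusted p = 0.031), and the call was lost without any single NC or LPS sample (adjusted p from 0.061 to 0.123), after centring or quantile normalization, and with no filter. Pex11a showed -0.67 in LPS vs NC (adjusted p = 0.112). Outside the naming rule, the ATPase Pex6 (-0.81, adjusted p = 0.0055) and the ubiquitin ligase subunits Pex10 (-0.84, adjusted p = 0.0201) and Pex2 (-0.36, adjusted p = 0.047) were the others that passed the adjusted p in LPS vs NC. Each of them was lost with a fit of these groups alone. Pex2 was also lost after centring or quantile normalization and on leaving out any sample, and Pex10 after quantile normalization, with no filter and without either LPS sample.

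In the antioxidant group no member rose or fell, and 2 of 5 were higher by the adjusted p alone in LPS vs NC (40%, against 9.84% of all genes). An unadjusted p under 0.05 was found for 4 of 5, and for 41.2% of all genes. Sod2, which removes superoxide in the mitochondrial matrix, was at 912 and 927 TPM in NC, 1667 and 1689 in LPS, 726 and 710.4 in C498, and 1312 and 1171 in C498+LPS. LPS samples were highest, and the groups did not overlap. Sod2 was 1.82-fold higher in LPS than in NC (log2 change 0.87, SE 0.0814, adjusted p = 0.000416) and 1.73-fold higher in C498+LPS than in C498 (log2 change 0.79, SE 0.0814, adjusted p = 0.00143), and with each sample centred on its median gene both folds passed 2. C498 left it lower by the adjusted p alone without LPS (-0.36, adjusted p = 0.0285) and with it (-0.44, adjusted p = 0.0125). Prdx5, a peroxiredoxin of mitochondria, peroxisomes and cytosol named here after its values were seen, was at 833 and 1096 TPM in NC, 1709 and 1931 in LPS, 717 and 791 in C498, and 1035 and 966 in C498+LPS. It was higher in LPS than in NC (log2 change 0.93, SE 0.14, adjusted p = 0.0032) and lower in C498+LPS than in LPS (log2 change -0.86, SE 0.14, adjusted p = 0.00781), at folds under 2. Prdx5 shares 409 exon bases with Trmt112 on the opposite strand, a gene at a mean of 71.2 TPM.

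Catalase, the enzyme that splits hydrogen peroxide in the peroxisome, was at 116 and 86.3 TPM in NC, 72.4 and 71.7 in LPS, 86.1 and 84.5 in C498, and 54.7 and 46.6 in C498+LPS. C498+LPS samples were the lowest. Cat was lower in C498+LPS vs C498 by the adjusted p alone (log2 change -0.74, SE 0.15, adjusted p = 0.0188) and missed it in LPS vs NC (log2 change -0.47, SE 0.15, adjusted p = 0.0539). Sod1 stayed between 321 and 422 TPM and passed in no comparison.

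Of the smaller groups, alpha-oxidation with leucine and retinal metabolism had 2 of 4 tested members lower by the adjusted p alone in both LPS comparisons (50%, against 19.8% and 11.7% of all genes). Among these was Phyh, the first enzyme of alpha-oxidation of phytanic acid, with -0.44 in LPS vs NC (adjusted p = 0.0227) and -0.43 in C498+LPS vs C498 (adjusted p = 0.0425). Both Phyh results were lost after centring. The first was also lost without NC replicate 1 or either LPS sample, and the second without any LPS, C498 or C498+LPS sample. Of the ether lipid enzymes, Gnpat, which starts the pathway in the peroxisome, was at 30.8 and 29 TPM in NC, 22.3 and 20.6 in LPS, 24.5 and 26.8 in C498, and 17.4 and 13.5 in C498+LPS and passed the adjusted p in C498+LPS vs C498 (log2 change -0.71, SE 0.147, adjusted p = 0.0205) but not in LPS vs NC (-0.46, adjusted p = 0.0517). Agps, the enzyme of the next step, and Far1, which supplies the fatty alcohol, passed in no comparison, and their NC replicates were wide apart, at 23.7 and 12.9 TPM for Agps and 32.6 and 12.7 TPM for Far1.

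After C498, LPS again lowered more members than it raised. In C498+LPS vs C498, 7 of 61 members fell (11.5%, against 3.13% of all genes) and none rose (against 2.52%), where Sod2 was the one member higher by the adjusted p alone (1.64%, against 4.51%). The 23 members lower by the adjusted p made up 37.7%, against 11.7% of genes, and the median was -0.43, against -0.18. This count was 4 without C498 replicate 1, 3 without C498 replicate 2, 12 without C498+LPS replicate 1, 5 without C498+LPS replicate 2 and 13 after centring. The count of 1 higher was 3 without either of the NC samples. Both C498+LPS samples lay below both C498 samples for 46 members (75.4%, against 48.8% of all genes) and above both for 4 (6.56%, against 17.4%). The call was shared by 6 members in both LPS comparisons, among them Idh1, Paox, Abcd4, Xdh and Mlycd, while 8 members changed in LPS vs NC only and Acox3 in C498+LPS vs C498 only. The count of 7 was 3 without C498 replicate 1, 2 without C498 replicate 2 and 4 without C498+LPS replicate 2, and with samples centred on the median gene 2 members fell (against 1.61% of all genes) and 1 rose (against 3.56%). The calls of Abcd4, Paox, Xdh, Acox3 and Mlycd were each lost without at least 1 C498 or C498+LPS library and after centring and quantile normalization (-0.92 to -0.79 and -0.94 to -0.82), and that of Idh1 was not. The negative changes of most macrophage markers in the same comparison stand beside these values, and their part was not tested.

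Whether the LPS response itself differed with C498 was tested by the interaction. With limma, 0 of 61 members passed (against 0.468% of all genes), and 7 had an unadjusted p under 0.05, as did 11.1% of all genes. The lowest adjusted p belonged to Idh1, whose decrease was smaller after C498 by 0.96 (SE 0.154, adjusted p = 0.0642), followed by Paox at 1.34 (SE 0.234, adjusted p = 0.0778) and Acsl1 at -1.03 (SE 0.277, adjusted p = 0.232). Idh1 passed without NC replicate 2 (1.07, adjusted p = 0.0395) and with samples centred on the median gene (1.01, adjusted p = 0.0487). For the 8 members that changed in LPS vs NC only, a difference between the responses with and without C498 was not shown in this fit, which has no replicate block.

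**Figure D4:**
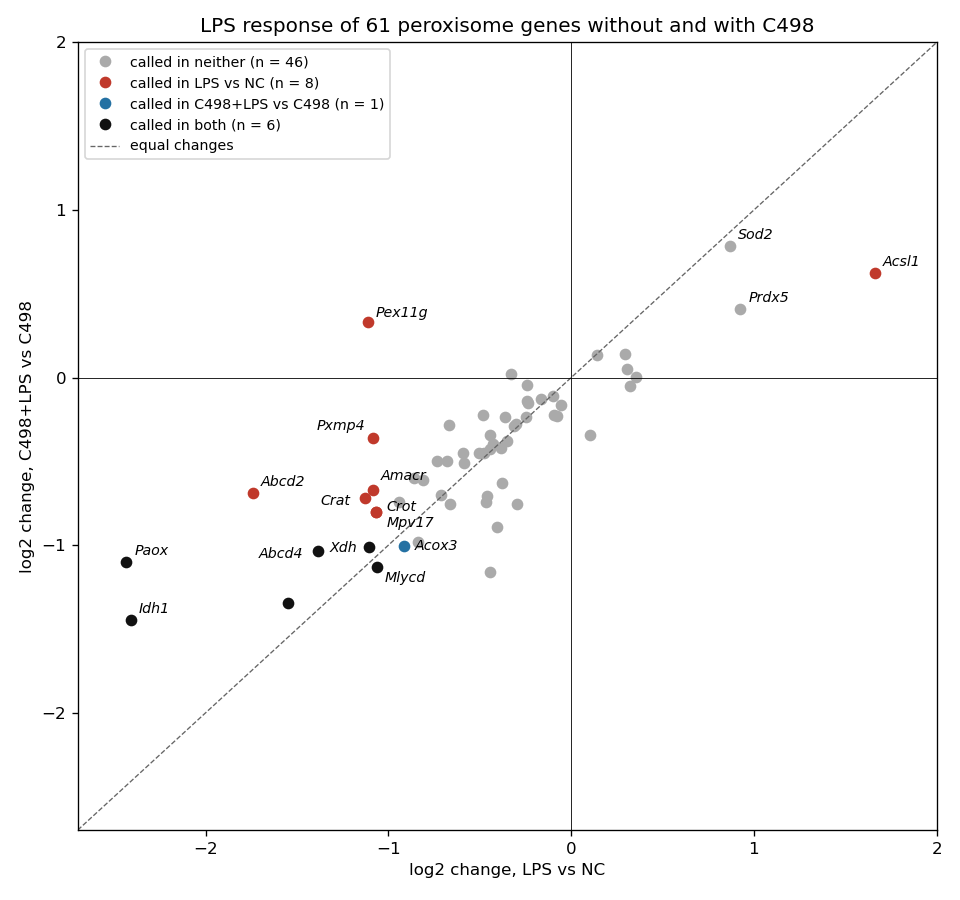
Log2 change in LPS vs NC (x axis) against that in C498+LPS vs C498 (y axis) for the 61 tested members, colored by the comparison in which they were called, with the line of equal changes. Most points lie in the lower left, Idh1, Paox and Abcd2 lie above the line, and Acsl1 lies below it.

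C498 itself moved few peroxisome genes past the thresholds. These comparisons share the LPS or the NC samples with LPS vs NC. In C498+LPS vs LPS, Acsl1 fell and Acsl3 rose, 1 of 61 members in each direction (1.64%, against 2.18% and 5.39% of all genes). By the adjusted p alone 6 members (9.84%) were lower and 3 (4.92%) higher, against 7.7% and 9.08% of genes. The 6 became 3 without LPS replicate 1 and 2 without LPS replicate 2 or C498+LPS replicate 2, and the 3 became 5 without either of the NC samples and 1 without any one of the other samples. In C498 vs NC, Abcd2 fell and Acsl3 rose, again 1 in each direction (1.64%, against 1.36% and 5.64%), and by the adjusted p alone 9 (14.8%) were lower and 2 (3.28%) higher, against 6.19% and 9.29%. The 9 became 0 without either of the C498 samples or with a fit of these groups alone, and 4 without NC replicate 2 or either of the LPS samples. The 2 became 7 without NC replicate 1, 0 without either of the C498 samples and 1 without any one of the others. Without NC replicate 1, 3 members rose in C498 vs NC, with Far1 and Acsl4 added, and on leaving out either C498 sample no member passed both thresholds. The member medians were -0.16 and -0.21, against 0.0065 and 0.014 over all genes. Both samples of C498 lay below both of NC for 34 members (55.7%, against 28.4% of genes) and above both for 6 (9.84%, against 29.3%). Both of C498+LPS lay below both of LPS for 29 (47.5%, against 30.9%) and above both for 14 (23%, against 31.9%). The raised fibroblast and mesothelial markers, the lower neutrophil marker sums and the negative changes of most macrophage markers in the C498 groups stand beside these values, and their part in the result was not tested.

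Lists of related genes, also drawn up with results of these data known, were counted beside the members. Of 6 tested nuclear receptors and coactivators that are known to regulate peroxisomal and lipid genes, 3 fell in LPS vs NC (50%, against 6.68% of all genes). Pparg, the lipid-sensing receptor of macrophages, was at 24.9 and 22 TPM in NC, 5.23 and 5.5 in LPS, 27.1 and 24.5 in C498, and 11.1 and 9.24 in C498+LPS, with all samples of both LPS groups below those without LPS. It fell in LPS vs NC (log2 change -1.94, SE 0.149, adjusted p = 0.000165) and in C498+LPS vs C498 (log2 change -1.27, SE 0.149, adjusted p = 0.00239) and was higher in C498+LPS than in LPS by the adjusted p alone (log2 change 0.81, SE 0.149, adjusted p = 0.0122). Its partner Rxra fell in both LPS comparisons, by 1.22 and 1.10 on the log2 scale (adjusted p = 0.00256 and 0.00819), and the coactivator Ppargc1b fell in LPS vs NC (-1.11, adjusted p = 0.0363). Ppara, the receptor behind peroxisome proliferation in rodent liver, was at 0 to 0.16 TPM.

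Mitochondrial beta-oxidation genes had 17 of 18 negative changes in LPS vs NC, with a median of -0.64, 10 lower by the adjusted p (55.6%, against 19.8% of all genes) and Echs1 alone passing the fold. In C498+LPS vs C498 none of them fell, 5 were lower by the adjusted p (27.8%, against 11.7%) and 11 had an unadjusted p under 0.05, as did 31.9% of all genes. Cpt1c, a carnitine acyltransferase best known from neurons, was higher in C498+LPS than in LPS (log2 change 1.49, SE 0.33, adjusted p = 0.0233), at 2.13 and 0.89 TPM in NC, 0.25 and 0.35 in LPS, 3.5 and 3.15 in C498, and 1.93 and 3.56 in C498+LPS. Of 15 tested peroxisome genes outside the KEGG map, none changed past both thresholds in LPS vs NC, where 2 were lower by the adjusted p (13.3%, against 19.8%) and 4 had an unadjusted p under 0.05, as did 41.2% of all genes. Acad11, an acyl-CoA dehydrogenase, fell in C498+LPS vs C498 (log2 change -1.17, SE 0.207, adjusted p = 0.0119), and Vapb, a tether of the endoplasmic reticulum, fell in C498 vs NC (log2 change -1.04, SE 0.213, adjusted p = 0.0205). The calls of Rxra, Ppargc1b, Cpt1c, Acad11 and Vapb were each lost on leaving out at least 1 library, and those of Pparg and Echs1 were not.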

How the data were processed

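RNA of 8 samples had been sequenced as paired reads on an Illumina NovaSeq. The submitters' processing notes name fastp, HISAT2, StringTie and RSEM, with no versions, and the genome build and annotation are not given in the sources used here. The values the authors deposited are TPM, given for each gene in each sample beside group means and KEGG annotation. TPM keeps no depth, so only the replicates show how noisy a gene is. Replicate samples correlated at 0.962 to 0.981 on the log2 scale, and 17528 to 18975 genes were above 0 in a sample.

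Values were transformed as log2(TPM + 1), and changes are on that scale, which understates those of weakly expressed genes. Genes averaging 1 TPM or more (12189) were fitted with limma 3.58.1 in R 4.3.3, using 4 group means, the 8 samples together and a variance trend. Adjusted p (Benjamini-Hochberg, two-sided) were taken over all tested genes within each comparison, and a call needs both an adjusted p no higher than 0.05 and a 2-fold difference. An exact permutation test of 2 samples against 2 cannot go below 0.333. On simulated data for LPS vs NC with 12189 genes, 176 of 200 changed genes (88%) and 5 unchanged genes were called. This share holds for the 200 genes together. Detection at folds near 2 or in weakly expressed genes, where several member calls lie, was not tested separately.

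Named are the members called in a comparison, the most abundant member of each role, textbook peroxisome genes, and called genes of the other lists. Some members enter the counts and are not reported here by name. The members and lists were chosen with earlier results of these data known. Positions are from GENCODE M21 (GRCm38), which held all 82 members. Exons of 38 members overlap another gene. Figures were drawn with matplotlib 3.10.9.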

Additional observations from a re-analysis of the deposited data

How the results depend on the processing

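The values were recomputed with a pseudocount of 0.1, without the filter, with a filter at a mean of 5 TPM, after centring on the median gene or quantile normalization, with fits of each comparison's groups alone, with the replicate number as a block, without the variance trend, without the fold threshold, and without each sample in turn, where the lone sample left in a group is assumed to vary like the other groups. No gene named with a call or past the adjusted p reversed its direction, while smaller changes did. After centring, 47 in place of 52 members were negative in LPS vs NC and 45 in place of 52 in C498+LPS vs C498, and the ether lipid median in LPS vs NC went from -0.095 to 0.074. Without NC replicate 1, the member median of the interaction went from 0.030 to -0.042. Of the 25 calls of members, 10 held throughout. A loss left the adjusted p at or under 0.05 with a fold under 2 in 32 cases and took the adjusted p above 0.05 in 34.

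Centring changed the members counted in LPS vs NC to 5 lower and 3 higher, in C498+LPS vs C498 to 2 lower and 1 higher, in C498 vs NC to 0 higher, and in the interaction to 1 higher. Quantile normalization gave 6 lower in LPS vs NC, 2 lower in C498+LPS vs C498, 2 lower in C498+LPS vs LPS (Prdx5 added) and 0 higher in C498 vs NC. For centring and quantile normalization, the shift of the median of all genes accompanied these values. In C498 vs NC the count of lower members was 0 with a pseudocount of 0.1, with no filter, with the filter at 5 TPM (Abcd2 was then not tested) and with only the groups compared, where the count of higher members was also 0. With no fold threshold, 4 members were higher and 28 lower in LPS vs NC, 1 higher and 23 lower in C498+LPS vs C498, 3 higher and 6 lower in C498+LPS vs LPS, and 2 higher and 9 lower in C498 vs NC. Over all alternatives, members lower by the adjusted p ran from 0 to 10 in C498 vs NC and from 2 to 11 in C498+LPS vs LPS. The cause of the other moves was not tested.

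On leaving out single samples, the counts ran from 9 to 13 lower and from 1 to 2 higher in LPS vs NC, from 2 to 8 lower in C498+LPS vs C498, from 0 to 1 lower and from 0 to 3 higher in C498 vs NC, and from 0 to 1 higher in the interaction. In C498+LPS vs LPS they were 1 and 1 throughout.

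Groups share the replicate numbers 1 and 2, but nothing in the labels pairs the samples, and the replicate differences of the groups correlated at only 0.0397 to 0.168 across genes. With the replicate block, 1 member (Acsl1, -1.03, adjusted p = 0.0452) was called lower in the interaction, members higher by the adjusted p alone in C498+LPS vs C498 went from 1 to 3, and the other counts of members were within 1.5 times.

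Of the 51 results that passed the adjusted p alone, 7 held throughout, and of the 9 calls in the other lists 3 did. These were checked after seeing the data. With 2 samples a group and no read counts, the change of the weakly expressed Pex11g in LPS vs NC and that of Abcd2 in C498 vs NC were not resolved.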
